A study of Mus musculus with 6 samples.

Results

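The genes described here build the synapse: 35 genes of synaptic vesicle release, the active zone, adhesion across the cleft and the postsynaptic scaffold, chosen by name from a table of 34745 genes. All 35 were found, once each, and all 35 passed the filter on low values (at least 0.5 FPKM in at least 3 libraries), as did 14147 genes in all. They fall into 16 vesicle genes, 5 active zone genes, 5 adhesion genes and 9 postsynaptic genes. RNA was sequenced from cerebral cortex of mice at postnatal day 8, in 3 control and 3 Pen-2 cKO libraries. Controls carried floxed Pen-2 alleles without Cre (Pen-2 F/F), and the cKO animals carried the same floxed alleles together with hGFAP-Cre, a Cre recombinase driven by a human GFAP promoter, which is active in astrocytes and also in the radial glia that give rise to cortical neurons and glia. Both groups thus share the floxed alleles and Cre is in the cKO group alone, so what the Cre transgene does and what losing Pen-2 does cannot be told apart, and bulk values do not show in which cells *Psenen* was lost. Values are in FPKM (fragments divided by gene length and by library depth), so levels of different genes can be set side by side. The labels do not say that each library came from a separate animal, so p-values measure the spread between these libraries, which may be technical.

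A neuron releases transmitter when a vesicle fuses with the membrane of the nerve ending. SNARE proteins on the vesicle and on the membrane zip together, synaptotagmin triggers fusion on binding calcium, and complexin clamps and assists the complex. Large active zone proteins hold vesicles near calcium channels, neurexins and neuroligins join both sides, and scaffolds such as PSD-95, SHANK, HOMER and gephyrin hold receptors opposite the release site. In the cortex of the young mouse these genes are expressed mainly by neurons, and synapses are still being formed in the second postnatal week. PEN-2, encoded by *Psenen*, is a subunit of γ-secretase, whose known substrates include neurexins and neuroligins among many other membrane proteins.

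The smallest steps between values implied 20251900 to 26809300 fragments per library. *Psenen* was 6.35, 6.86 and 7.32 FPKM in the controls and 3.56, 3.90 and 4.03 in the cKO libraries, so the libraries followed their labels. Of 10 astrocyte markers 7 fell (median log2 difference -1.495), and of 10 oligodendrocyte lineage markers 8 rose (median 1.80). The tissue label was checked against excitatory neuron markers of the cortex, of which *Neurod6* was 74.5 to 99.85 FPKM, and against 6 hindbrain and spinal cord markers, which summed to at most 0.0940 FPKM in any library. Striatal markers summed to 82.8 to 150.8 FPKM in the controls and 158.6 to 231.6 in the cKO libraries, with 2 of 8 called higher. In bulk tissue, fewer cells of a type and less RNA per cell cannot be told apart.

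None of the 35 synaptic genes passed an adjusted p of 0.05 (limma on log2(FPKM + 0.1), adjusted over all 14147 genes). In the same fit 783 genes were called, 519 higher and 264 lower in cKO cortex, which is a background of 5.53%. At an unadjusted p under 0.05 there were 6 of the 35 (17.1%), against 22.9% of all tested genes. The 3 cKO libraries lay entirely above or entirely below the 3 controls in 6 of the 35 (17.1%), against 29.7% of all tested genes. The log2 differences, always cKO minus control, ran from -0.38 to 0.30 with a median of -0.02 over the 35, and the median over all tested genes was 0.07. The median of the 35 lay on either side of 0 by scaling, at -0.09 with median-ratio scaling, -0.075 with upper-quartile scaling, -0.10 after a length and GC correction and 0.035 with equal sums. The median over all tested genes moved with it, to -0.001, 0.009, -0.012 and 0.116 in the same order. In each of these fits, as in the main one, the median of the 35 was below that of all tested genes. The standard deviation of the log2 differences was 0.15 for the 35, against 0.37 over all tested genes, which were not matched to the 35 for level.

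The intervals give the size of difference that these libraries leave room for. The 95% intervals of the log2 difference reached no lower than -0.71 and no higher than 0.66, so each of the 35 lay inside 2-fold in either direction, as did 87.2% of all tested genes. In 30 of the 35 the interval lay inside 0.5 on the log2 scale in either direction, against 55.7% of tested genes. The 5 whose intervals reached beyond 0.5 were *Syt2*, *Rims1*, *Shank2*, *Homer1* and *Camk2b*. Mean levels of the 35 lay above those of 65.0% (*Syt2*) to 99.7% (*Cplx2*) of all genes in the series. Genes of matched level were not compared, so these shares do not show that synaptic genes vary less than other genes of their level. By group, the median log2 difference was -0.02 for vesicle genes, 0.12 for active zone genes, 0.08 for adhesion genes and -0.05 for postsynaptic genes, and each group held values of both signs. Over the alternatives run, the medians of the vesicle genes (-0.10 to 0.065) and of the postsynaptic genes (-0.12 to 0.045) lay on either side of 0. The postsynaptic median was 0.045 without control replicate 3, 0.042 without cKO replicate 3 and 0.003 with equal sums. The active zone median ran from 0.048 to 0.173 and the adhesion median from 0.012 to 0.132, both lowest with median-ratio scaling.

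**Figure D1:**
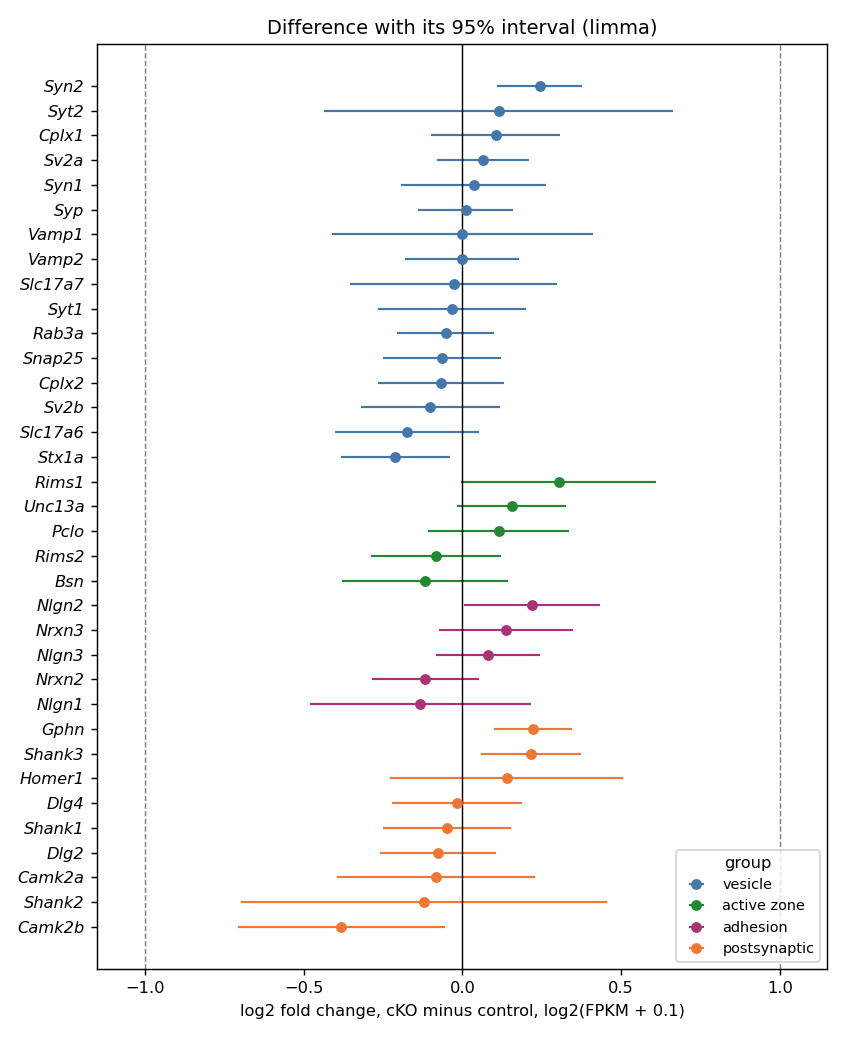
Log2 difference between cKO and control cortex for the 35 synaptic genes (x axis, log2(FPKM + 0.1), points) with 95% limma intervals (bars), coloured by group, with dashed lines at 2-fold (-1 and 1). Each bar stays between -0.71 and 0.66, and 6 of them do not cross 0.

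Levels spanned a wide range at this age. *Cplx2*, a complexin, was highest at 257 ± 26.4 FPKM in the controls and 245 ± 15.6 in the cKO cortex (SD, n = 3 per group). *Slc17a7*, *Vamp2* and *Syp* followed, and *Vamp1* and *Syt2* were lowest. By group, member means ran from 1.07 to 250.9 FPKM for vesicle genes, 5.74 to 27.25 for active zone genes, 5.07 to 39.0 for adhesion genes and 3.59 to 89.7 for postsynaptic genes. Ranges of neighbours in this order could overlap, for example *Slc17a7* at 176 to 250 FPKM and *Vamp2* at 154 to 190 FPKM over the 6 libraries. Within each of the 6 libraries, however, *Slc17a7* was above *Vamp2*.

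**Figure D2:**
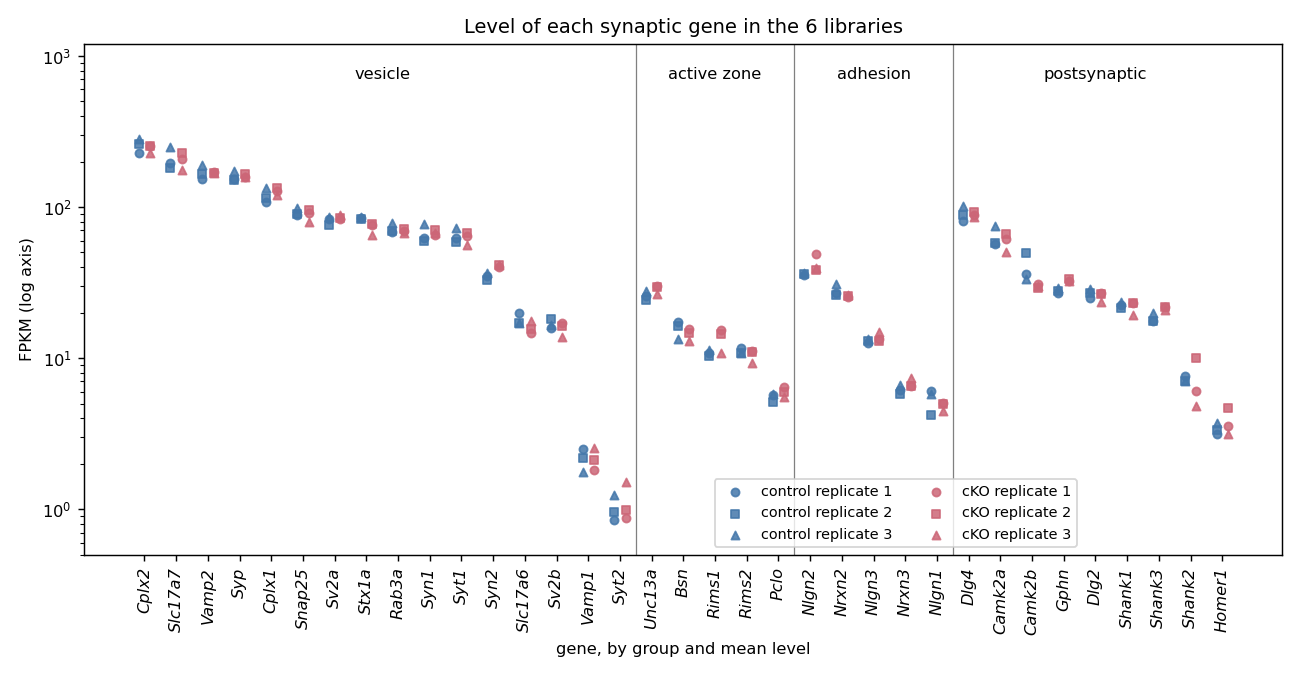
FPKM of the 35 synaptic genes in each library (log axis), ordered by mean level within the vesicle, active zone, adhesion and postsynaptic groups. Control (blue) and cKO (red) points overlap for 29 genes, and levels run from 0.850 FPKM (*Syt2*) to 282 FPKM (*Cplx2*).

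Promoters of the members were read to show a sequence feature that many neuronal genes share. RE1 is the element bound by REST, a repressor that keeps neuronal genes off in other cells, and the searched parts were TTCAGCACC of its left side and GACAGCGCC of its right side, on both strands. Of the 35 genes, 27 matched the RefSeq promoter table (GRCm38.p6, 250 bases before to 50 after a start site), with 43 windows. The left part was in 3 of the 43 windows, those of *Syn1*, *Unc13a* and *Nlgn1*, against 0.371% of all 32851 windows. The right part was in 1 window, that of *Unc13a*, against 0.326% of all windows. The cyclic AMP response element TGACGTCA was in the window of *Syn1*, where it reads the same on both strands, against 1.79% of all windows. The matches are shown 5′ to 3′ on the strand of the gene, with matched letters in capitals. Those of *Syn1* and *Nlgn1* have their surroundings, and those of *Unc13a* only the bases between them.
Syn1, chrX:20921040-20921168, minus strand: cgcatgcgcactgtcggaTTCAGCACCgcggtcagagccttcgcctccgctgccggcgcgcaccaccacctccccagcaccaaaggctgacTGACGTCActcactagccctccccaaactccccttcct
Unc13a, chr8:71671727-71671753, minus strand: GGCGCTGTCcgcgcccccGGTGCTGAA
Nlgn1, chr3:26154101-26154169, minus strand: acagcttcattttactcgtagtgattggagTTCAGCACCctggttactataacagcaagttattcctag
In *Syn1* the left part begins 232 bases before the start site. In *Nlgn1* it begins 153 bases before a start site that lies within the gene (chromosome 3, 25426215 to 26332460, minus strand), not at its outermost 5′ end. In *Unc13a* both parts stand on the opposite strand, just after the start site. Read along the strand of the gene, as printed, the right part comes first, and read along the opposite strand the left part does. These letters are a description of the windows and show no binding. The median GC content was 60.0% over the 43 windows and 52.7% over all windows, and the median number of CG pairs was 14 and 7. The values of these 3 genes follow with their groups.

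Of the SNARE genes, *Vamp2*, *Snap25* and *Stx1a* were among the more abundant members, and *Vamp1* was among the lowest. *Vamp2*, the main vesicle SNARE of the forebrain, was 154, 165 and 190 FPKM in the controls and 170, 168 and 168 in the cKO libraries. The cKO libraries lay inside the control range, and the log2 difference was 0.00 (95% interval -0.18 to 0.18). *Snap25*, a SNARE of the nerve ending membrane, was 89.0, 90.5 and 99.1 FPKM in the controls and 91.4, 95.8 and 79.8 in the cKO libraries, which overlap. *Stx1a*, syntaxin 1A, the other SNARE of that membrane, was 84.4, 82.7 and 85.4 FPKM in the controls and 76.5, 77.3 and 65.0 in the cKO libraries. All 3 cKO values of *Stx1a* were below all 3 control values, and cKO replicate 3 was lowest. Its log2 difference was -0.21 (SE 0.07, limma, adjusted p = 0.144), the most negative of the vesicle genes, and it did not pass. *Stx1a* lies on mm10 chromosome 5, 135023482 to 135051100. *Vamp1*, a related vesicle SNARE that is prominent in brainstem and spinal cord, was 2.496, 2.19 and 1.75 FPKM in the controls and 1.805, 2.105 and 2.52 in the cKO libraries, with overlapping groups.

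Fusion sensors and clamps overlapped between groups. *Syt1*, the calcium sensor of fast release in the forebrain, was 61.9, 58.2 and 72.9 FPKM in the controls and 64.5, 67.3 and 56.4 in the cKO libraries. *Syt2*, the sensor used by many brainstem and fast-spiking inhibitory neurons, was 0.850, 0.962 and 1.24 FPKM in the controls and 0.877, 0.992 and 1.51 in the cKO libraries, with the highest value in replicate 3 of each group. *Cplx2* was 229, 261 and 282 FPKM in the controls and 253, 255 and 227 in the cKO libraries. The groups of *Cplx2* overlapped, with a log2 difference of -0.07 (95% interval -0.27 to 0.13). *Cplx1*, the other main complexin, was 107, 114 and 134 FPKM in the controls and 127, 134 and 120 in the cKO libraries (log2 difference 0.10, 95% interval -0.10 to 0.31).

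Vesicle membrane and tethering genes also overlapped, apart from *Syn2*. *Syn2*, synapsin II, which ties vesicles into the reserve pool, was 34.7, 32.6 and 36.7 FPKM in the controls and 40.1, 41.4 and 41.5 in the cKO libraries. Each cKO library of *Syn2* lay above each control library, and the mean was 34.7 ± 2.02 FPKM in the controls and 41.0 ± 0.783 in the cKO cortex. Its log2 difference was 0.24 (SE 0.06, limma, adjusted p = 0.0561), which did not pass. It lies on chromosome 6, 115134902 to 115282006, where 1.28% of its exon bases are shared with *Timp4* on the opposite strand. *Syn1*, synapsin I, was 62.5, 59.5 and 77.4 FPKM in the controls and 65.5, 70.3 and 67.4 in the cKO libraries, where control replicate 3 stood above the rest. *Syp*, synaptophysin, the classic vesicle membrane marker, had a log2 difference of 0.01 (95% interval -0.14 to 0.16), at 159 ± 12.03 and 160 ± 5.32 FPKM. Of its exon bases 16.79% are shared with the antisense gene *Gm14703*, which was at most 0.189 FPKM. The vesicle glycoproteins *Sv2a* and *Sv2b* were 81.7 ± 5.59 and 16.9 ± 1.18 FPKM in the controls and 85.3 ± 2.76 and 15.7 ± 1.66 FPKM in cKO cortex. *Rab3a*, the GTPase that docks vesicles to RIM, was 72.1 ± 5.66 FPKM in the controls and 69.4 ± 2.22 in the cKO cortex.

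The vesicular glutamate transporters load vesicles in excitatory endings. *Slc17a7* (VGLUT1), typical of cortical neurons, was 195, 181 and 250 FPKM in the controls and 209, 227 and 176 in the cKO libraries. *Slc17a6* (VGLUT2), typical of thalamic and other subcortical neurons and of young cortex, was 19.9, 17.0 and 17.1 FPKM in the controls and 14.5, 15.6 and 17.7 in the cKO libraries. Both overlapped between groups, with *Slc17a6* at a log2 difference of -0.175 (95% interval -0.40 to 0.05). The *Slc17a7* level was 9.82, 10.6 and 14.7 times that of *Slc17a6* in control and 14.4, 14.6 and 9.94 times in cKO libraries. Beside them, 1 of 8 excitatory neuron markers fell (*Emx1*), and these summed to 189.9 to 204 FPKM in the controls and 150 to 192 FPKM in the cKO libraries. Of the 4 tested markers of thalamus and other subcortex 1 fell, and the list summed to 42.1 to 53.4 and 34.8 to 59.6 FPKM. Most of that sum was *Calb2*, at 24.1 to 49.0 FPKM over the 6 libraries. *Tcf7l2*, *Lhx9*, *Gbx2* and *Pou4f1* were at most 0.550 FPKM in any library and were not tested. The part of these markers in the transporter values was not tested.

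Active zone genes were lower in level than most vesicle genes. *Unc13a*, Munc13-1, which primes vesicles for fusion, was 25.6, 24.1 and 27.6 FPKM in the controls and 29.95, 29.55 and 26.7 in the cKO libraries. Only cKO replicate 3 fell inside the control range (log2 difference 0.16, 95% interval -0.02 to 0.33). *Unc13a* shares 495 exon bases with *Colgalt1* on the opposite strand, which was 27.4 to 32.8 FPKM in the controls and 35.8 to 38.3 in the cKO libraries. Counting is not stated to use strand, so fragments of the shared bases cannot be told apart. *Rims1*, RIM1, which binds RAB3 and calcium channels, was 10.8, 10.3 and 11.3 FPKM in the controls and 15.3, 14.4 and 10.7 in the cKO libraries. Its log2 difference of 0.30 was the largest of the 35 (limma, adjusted p = 0.227). Without cKO replicate 3, the one that overlapped the controls, it was 0.46 (adjusted p = 0.0234), beside 2.26% of all tested genes called higher in that fit. Leaving out that library widens the gap by construction, so this call is no separate support. With each other library left out, the log2 difference of *Rims1* was 0.20 to 0.33 (limma, adjusted p = 0.252 to 0.489).

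*Bsn* and *Pclo* encode bassoon and piccolo, the giant scaffolds of the active zone. *Bsn* was 17.2, 16.3 and 13.4 FPKM in the controls and 15.5, 14.7 and 12.9 in the cKO libraries, with replicate 3 lowest in both groups. *Pclo* was 5.67, 5.10 and 5.75 FPKM in the controls and 6.46, 5.98 and 5.50 in the cKO libraries. *Rims2*, RIM2, was 11.6, 10.9 and 10.8 FPKM in the controls and 11.2, 11.0 and 9.31 in the cKO libraries. All 5 active zone genes were highest in cKO replicate 1 and lowest in cKO replicate 3 among the cKO libraries.

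Adhesion genes span both sides of the cleft. *Nlgn2*, neuroligin 2, the neuroligin of inhibitory synapses, was 35.6, 35.8 and 36.4 FPKM in the controls and 48.6, 38.3 and 39.4 in the cKO libraries. All cKO values of *Nlgn2* were above all control values, with cKO replicate 1 far above the other two (log2 difference 0.22, SE 0.09, limma, adjusted p = 0.207). It lies on chromosome 11, 69823122 to 69837784. *Nlgn1*, which acts at excitatory synapses, was 6.04, 4.17 and 5.82 FPKM in the controls and 5.01, 4.94 and 4.47 in the cKO libraries. *Nlgn3*, found at both kinds of synapse, was 12.6, 12.99 and 13.4 FPKM in the controls and 13.5, 13.03 and 14.8 in the cKO libraries. *Nlgn1* and *Nlgn3* overlapped between groups. Of the exon bases of *Nlgn3* 41.24% are also annotated to *Gm21986*, listed at 0.145 to 0.346 FPKM, so its value is uncertain by how shared fragments were split.

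The neurexins are the presynaptic partners of the neuroligins. *Nrxn2* was 27.0, 26.0 and 30.8 FPKM in the controls and 25.2, 25.6 and 26.3 in the cKO libraries (log2 difference -0.12, 95% interval -0.29 to 0.05). *Nrxn3* was 6.15, 5.79 and 6.63 FPKM in the controls and 6.52, 6.57 and 7.40 in the cKO libraries (log2 difference 0.14, 95% interval -0.07 to 0.35). Both overlapped between groups. Neurexin genes make long and short forms from separate promoters, which gene-level values do not separate.

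At the inhibitory postsynapse, the set holds *Gphn* alone. *Gphn* encodes gephyrin, which clusters glycine and GABA receptors, and it was 27.1, 27.8 and 29.2 FPKM in the controls and 32.3, 33.4 and 32.4 in the cKO libraries. The groups did not overlap, with means of 28.0 ± 1.10 and 32.7 ± 0.597 FPKM and a log2 difference of 0.22 (SE 0.05, limma, adjusted p = 0.0549), which did not pass. *Gphn* lies on chromosome 12, 78226655 to 78684767, and is also expressed outside neurons, where it serves molybdenum cofactor synthesis. Beside it, 2 of 8 inhibitory neuron markers rose, *Gad1* from 14.6 ± 0.745 to 22.1 ± 3.05 FPKM and *Sst* from 402 ± 36.4 to 617 ± 48.8 FPKM. The 8 markers summed to 501 to 575 FPKM in the controls and 786 to 843 in the cKO libraries, and most of that sum was *Sst*. Over the 8, 6 log2 differences were positive and 2 negative (*Dlx1* and *Dlx2*), with a median of 0.33. The part of these markers in the values of *Gphn* and *Nlgn2* was not tested.

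Excitatory scaffold genes mostly overlapped between groups. *Dlg4*, PSD-95, the main scaffold of the excitatory postsynapse, was 80.6, 88.6 and 102 FPKM in the controls and 88.4, 93.0 and 85.6 in the cKO libraries (log2 difference -0.02, 95% interval -0.22 to 0.19). *Dlg2*, PSD-93, was 26.9 ± 1.90 FPKM in the controls and 25.5 ± 1.88 in the cKO cortex. *Homer1*, which links SHANK to metabotropic glutamate receptors, was 3.13, 3.34 and 3.73 FPKM in the controls and 3.56, 4.68 and 3.14 in the cKO libraries.

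The SHANK genes encode the deeper scaffold. *Shank3* was 17.7, 17.7 and 19.9 FPKM in the controls and 21.6, 21.9 and 20.7 in the cKO libraries, with each cKO library above each control. Its log2 difference was 0.22 (SE 0.07, limma, adjusted p = 0.113), on chromosome 15, 89499623 to 89560261. *Shank1* was 22.3, 21.6 and 23.5 FPKM in the controls and 23.3, 23.0 and 19.2 in the cKO libraries, with a log2 difference of -0.05 (95% interval -0.25 to 0.15). *Shank2* was 7.65, 7.02 and 7.06 FPKM in the controls and 6.08, 10.1 and 4.79 in the cKO libraries, where the cKO values lay on both sides of the controls. Its interval, -0.70 to 0.46, was the widest of the 35.

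The kinase CaMKII is the most abundant enzyme of the excitatory postsynapse, with *Camk2a* and *Camk2b* encoding its main brain subunits. *Camk2b* was 35.9, 49.7 and 33.3 FPKM in the controls and 30.9, 29.2 and 29.8 in the cKO libraries. The groups did not overlap, and control replicate 2 stood far above the other 5 libraries. Its log2 difference was -0.38 (SE 0.14, limma, adjusted p = 0.161), the most negative of the 35, and it was -0.21 without control replicate 2 (adjusted p = 0.189). In the authors' deposited table *Camk2b* had a q-value of 0.0213, from a test that is not stated, and the other members had 0.179 or more. There *Syn2* had 0.967 and *Gphn* 0.942. The authors' group values are not the means of the library values, for example 35.5 and 38.8 FPKM for *Syn2* in control and cKO, against means of 34.7 and 41.0. *Camk2a* was 56.5, 57.5 and 74.5 FPKM in the controls and 61.2, 65.8 and 50.6 in the cKO libraries. These overlapped, with the highest value in control replicate 3 and the lowest in cKO replicate 3.

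Calls on single members changed with 1 library or the scaling. With library sums made equal, *Gphn* and *Syn2* were called higher (log2 0.27 and 0.29, limma, adjusted p = 0.0210 and 0.0252), beside 6.41% of all tested genes called higher. With median-ratio scaling the same differences were 0.15 and 0.17 (adjusted p = 0.209 and 0.191). Without control replicate 3, *Gphn*, *Syn2* and *Shank3* were called higher (log2 0.25, 0.28 and 0.27, limma, adjusted p = 0.0425, 0.0385 and 0.0452), beside 4.11% of all tested genes. Control replicate 3 was the highest control library for each of these genes. Leaving it out widens the gap by construction, so those calls are no separate support. The share of all calls that were higher moved too, from 66.3% to 47.8% with median-ratio scaling, 50.4% with upper-quartile scaling, 78.8% with equal sums and 45.7% after a length and GC correction.

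Libraries of the same group differed from one another. Among the controls, 27 of the 35 genes were highest in replicate 3, 13 of 16 vesicle genes included. Among the cKO libraries, 22 of the 35 were lowest in replicate 3. Relative to its own mean over the 6 libraries, the median gene was at -0.06, -0.07 and 0.06 in control replicates 1, 2 and 3 and at 0.01, 0.03 and -0.06 in cKO replicates 1, 2 and 3 (log2). For all tested genes the same medians were -0.01, -0.02 and -0.06 in control and 0.04, 0.03 and 0.04 in cKO libraries. The 10 pan-neuronal markers were at medians of 0.00, 0.06 and 0.15 in control and -0.06, 0.01 and -0.13 in cKO libraries, highest in control replicate 3 and lowest in cKO replicate 3. The synaptic genes' median was also highest in control replicate 3, but lowest in control replicate 2. Of those markers 1 fell, *Tubb3*, from 1404 ± 41.7 to 1141 ± 45.1 FPKM, while *Rbfox3* was 19.7 ± 0.385 and 16.9 ± 1.08 FPKM and did not pass. The 10 markers summed to 2268 to 2345 FPKM in the controls and 1938 to 2039 FPKM in the cKO libraries, and most of that sum was *Tubb3*. Over the 10, 7 log2 differences were negative and 3 positive, with a median of -0.125. The 5 choroid plexus markers, 3 of them tested and none called, summed to 35.4 to 181.7 and 186 to 888 FPKM, and *Ttr* among them was highest in replicate 3 of each group. The part of these markers in the synaptic values was not tested.

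**Figure D3:**
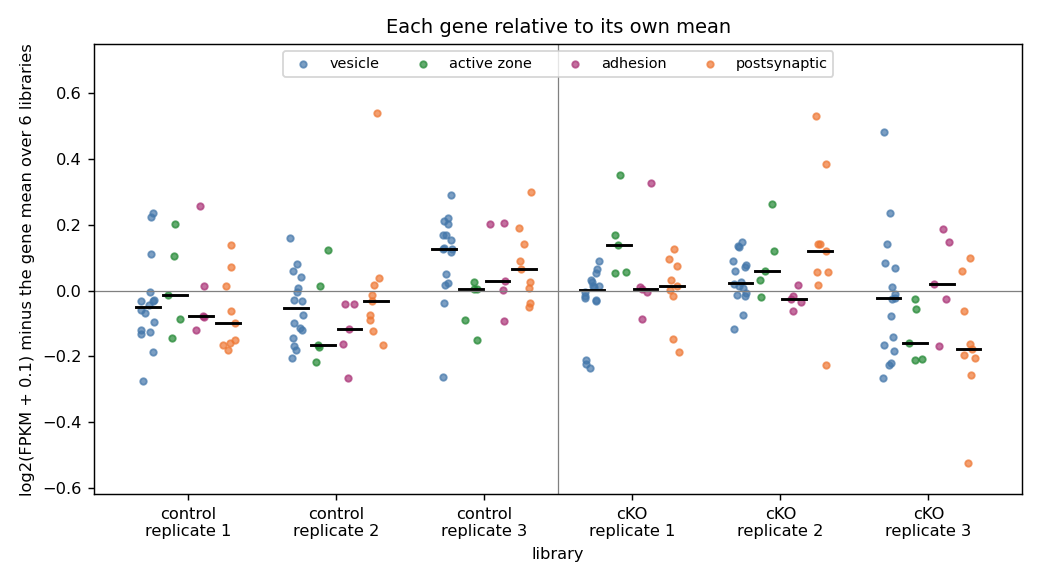
Log2(FPKM + 0.1) of each synaptic gene minus its own mean over the 6 libraries (y axis), by library (x axis) and coloured by group, with black lines at group medians. Control replicate 3 has the highest vesicle median (0.13), and cKO replicate 3 the lowest postsynaptic median (-0.18).

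Ratios between related genes within a library do not depend on how libraries are scaled. Over 10 pairs, no ratio passed after Benjamini-Hochberg adjustment (exact two-sided permutation test, 3 against 3, whose smallest possible p is 0.1, so that none could pass). In 3 pairs the groups separated fully, each at the smallest possible p = 0.1 (exact permutation, adjusted p = 0.333), beside 29.7% of single tested genes whose groups do not overlap. *Cplx1*/*Cplx2* was 0.468, 0.437 and 0.474 in control and 0.502, 0.525 and 0.529 in cKO libraries. *Shank1*/*Shank3* was 1.26, 1.22 and 1.18 in control and 1.08, 1.05 and 0.928 in cKO libraries. *Syn1*/*Syn2* was 1.80, 1.82 and 2.11 in control and 1.63, 1.70 and 1.62 in cKO libraries. The forebrain forms prevailed in all 6 libraries, with *Vamp2* at 61.6 to 108 times *Vamp1* and *Syt1* at 37.5 to 73.5 times *Syt2*. *Camk2a*/*Camk2b* was 1.16 to 2.24 in control and 1.70 to 2.26 in cKO libraries, and *Nlgn2*/*Nlgn1* 5.90 to 8.59 and 7.76 to 9.70. *Sv2a*/*Sv2b* was 4.15 to 5.24 and 4.88 to 6.37, and *Dlg4*/*Dlg2* 3.21 to 3.54 and 3.30 to 3.66, with overlapping groups.

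**Figure D4:**
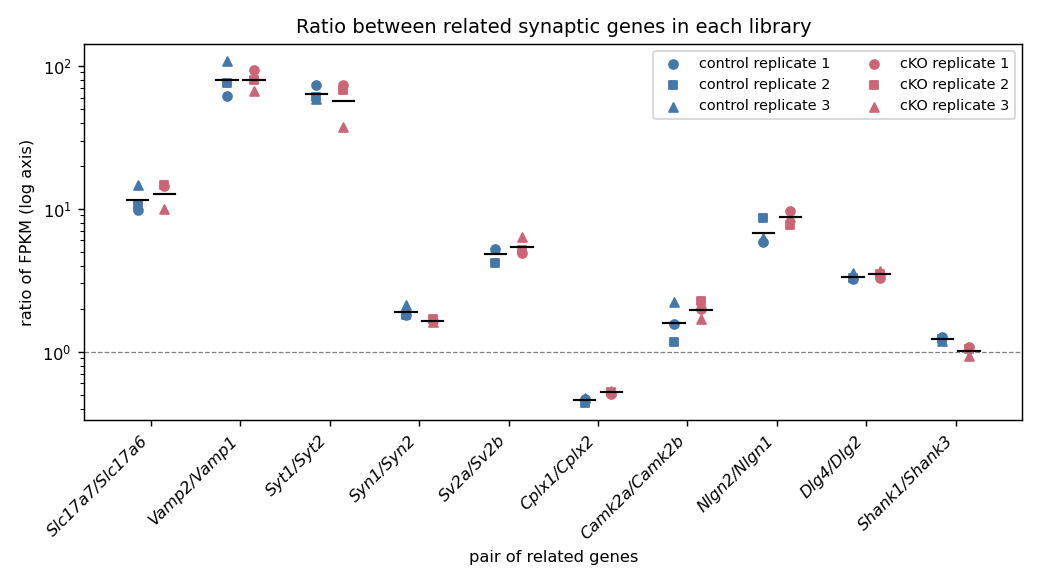
Ratio of FPKM between 10 pairs of related synaptic genes (log axis) in each control (blue) and cKO (red) library, with black lines at geometric means and a dashed line at equal levels. Ratios run from 0.437 (*Cplx1*/*Cplx2*) to 108 (*Vamp2*/*Vamp1*), and 3 pairs do not overlap between groups.

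Other synaptic genes were taken from a list of 96, of which 95 were tested. Of these, 3 fell and 0 rose in limma, against 1.87% of all tested genes called lower, and the median log2 difference was 0.02. At an unadjusted limma p under 0.05 there were 23 of the 95, against 22.9% of all tested genes. *Camk2g*, the gamma subunit of CaMKII, was 50.8, 50.2 and 49.0 FPKM in the controls and 36.9, 36.9 and 39.3 in the cKO libraries. It fell by 0.41 on the log2 scale (SE 0.05, limma, adjusted p = 0.00581) and was called with each library left out in turn. *Syt4*, a synaptotagmin of dense-core vesicles, fell from 88.7 ± 7.33 to 68.9 ± 1.98 FPKM (log2 difference -0.36, limma, adjusted p = 0.0267). *Cplx3*, a complexin found in the retina and in deep cortex, fell from 9.74 ± 0.748 to 6.11 ± 0.963 FPKM (log2 difference -0.67, limma, adjusted p = 0.0287). The groups of these 3 genes did not overlap, as in 29.7% of all tested genes. Calls on *Cplx3* and *Syt4* changed with the library left out, while their log2 differences stayed of similar size. That on *Cplx3* ended without control replicate 1, 2 or 3 (adjusted p = 0.0672, 0.110 and 0.0652) and without cKO replicate 1 or 2 (0.0521 and 0.0681), at log2 differences of -0.73, -0.66, -0.62, -0.75 and -0.73. That on *Syt4* ended without control replicate 2 (0.0868) and without cKO replicate 1 or 2 (0.0988 and 0.0938), at log2 differences of -0.38, -0.34 and -0.36. Without the trend and robust options the adjusted p was 0.0505 for *Cplx3* and 0.0721 for *Syt4*. The call on *Cplx3* also ended with no filter on low values (0.0537) and with the replicate number as a block (0.0729).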

How the data were processed

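The deposited values are FPKM, made by the authors, per the file headers, although the series-wide table is named for raw counts. Per the submitters' processing notes, the genome build was mm10. Aligner, counter, annotation and strand use are not named in the labels or headers used here. The authors' deposited q-values come without a stated test and were only quoted. The 6 single-library tables repeat the FPKM of the series-wide one exactly. Values of single-transcript genes under 50 fragments came out within 0.01 of whole fragments in 83.5% to 93.4% of cases, but in 5.4% to 6.1% for genes with several transcripts, so whole counts could not be restored for most genes and count models were not used.

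The test was limma 3.58.1 in R 4.3.3 (mean-variance trend, robust) on log2(FPKM + 0.1), scaled as deposited, for genes reaching 0.5 FPKM in 3 or more libraries, with Benjamini-Hochberg adjustment over all 14147 genes and a threshold of 0.05. Fold changes on that scale understate those of low genes. The steps were tested on simulated data. The members and lists were chosen with earlier results of these data known. All 35 members are accounted for. By rule, values in every library are given for the 2 members of highest and the 1 of lowest mean level in each group and the 2 largest log2 differences in each direction, and called genes of the other synaptic list are named. Other members, *Gphn* and *Shank3* included, were added after their values were seen. Promoter motifs were chosen after the data were seen. Ratios were tested by exact permutation. Alternatives varied filter, pseudocount, scaling, test options, length and GC content, replicate block and each library left out. Python 3.11.15, pandas 2.3.3, NumPy 2.4.6, SciPy 1.17.1 and matplotlib 3.10.9 were used.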

Additional observations from a re-analysis of the deposited data

How the results depend on the processing

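The number of synaptic genes called, 0 of 35, was 2 with equal sums and 0 to 3 as each library was left out (3 without control replicate 3, 1 without cKO replicate 3), and 0 under the other alternatives run. The number called among all tested genes, 783, was 499 without the low-value filter, 456 with the replicate number as a block and 210 to 813 as each library was left out: leaving out control replicate 1 or 2 gave 300 and 210, and leaving out cKO replicate 1 or 2 gave 315 and 302. Other synaptic genes called, 3, were 10 with equal sums (7 higher, 3 lower), beside 6.41% of all tested genes called higher in that fit. They were 1 to 6 with a library left out: 1 without control replicate 2 or cKO replicate 1, and 6 without control replicate 3. The vesicle median of -0.015 was -0.083 with median-ratio scaling, -0.100 with a length and GC correction and -0.063 to 0.065 with a library left out, the last without control replicate 3. None of the 7 synaptic genes called under any alternative and named in the report (*Gphn*, *Syn2*, *Shank3*, *Rims1*, *Camk2g*, *Syt4* and *Cplx3*) turned direction, while 10 uncalled members changed sign without cKO replicate 3 and 7 without control replicate 3.

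Samples with the same replicate number deviated together only weakly (r = 0.061, 0.012 and 0.10), so the numbers were not taken as pairs, and not every sample correlated best with its own number. The block changed no call among the 35. With 3 libraries a group, the members' intervals reached a median of 0.205 to either side on the log2 scale.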
